A study of Homo sapiens with 9 samples.

Results

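Genes of inflammatory signalling were followed in HepG2, a human hepatoma cell line with many hepatocyte traits: the chemokines CXCL8, CXCL1, CXCL2, CXCL3, CCL2 and CCL20, the interleukin-1 receptor IL1R1, the NF-kappaB subunit RELB, and the inhibitors NFKBIA and TNFAIP3. They are 10 of 19775 genes measured on Affymetrix 3′ expression arrays, and all 16 probe sets that carry 1 of these symbols were read. The symbols were selected on differences from vehicle already seen on these same arrays, so every value of these genes is a description and carries no p-value.

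The cells came in 3 groups of 3 arrays: HepG2 given the DMSO vehicle, HepG2 given GW7647 at 100 nM for 6 h, and HepG2 given GW7647 at 100 nM for 24 h. GW7647 is a synthetic agonist of PPARα, the nuclear receptor that fatty acids activate. All groups were grown in DMEM with serum and without phenol red. The labels name no harvest time for the vehicle cells, so agonist exposure and time in culture cannot be told apart, and both times are compared with the same vehicle arrays. All arrays are of 1 cell line, and the labels do not say that replicates are separate cultures, so errors measure the spread between these arrays, which may be technical.

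NF-kappaB is a family of dimeric transcription factors held in the cytoplasm by IkappaB proteins. Interleukin-1 and tumour necrosis factor, acting through their receptors and the IkappaB kinase, release the dimers, which switch on chemokine genes and also the genes of their own inhibitors, so that the response limits itself. In liver, hepatocytes answer these cytokines by secreting chemokines that draw neutrophils, monocytes and lymphocytes, and activated PPARα is known for restraining such inflammatory transcription.

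RefSeq promoter sequence (build GRCh38.p14) was held for 8 of the 10 genes; RELB and CCL2 had no entry in the promoter table used here. The 150 bases before the transcription start are shown for 5 genes, 4 whose signal differed at 6 h and CXCL1, whose groups overlapped. They run 5′ to 3′ on the strand of the gene. Capitals mark matches to the NF-kappaB consensus known as the kappaB motif, to its shorter form GGAATTTCC, or to the AP-1 motif TGANTCA, each searched on both strands.
CXCL8 (chr4:73740419-73740568, plus strand): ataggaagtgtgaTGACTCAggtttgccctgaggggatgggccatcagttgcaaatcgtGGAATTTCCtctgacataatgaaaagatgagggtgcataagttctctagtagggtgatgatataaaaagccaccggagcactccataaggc
CCL20 (chr2:227813692-227813841, plus strand): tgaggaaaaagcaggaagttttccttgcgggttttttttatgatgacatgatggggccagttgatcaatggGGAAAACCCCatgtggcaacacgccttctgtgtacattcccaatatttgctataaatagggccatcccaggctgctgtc
NFKBIA (chr14:35404750-35404899, minus strand): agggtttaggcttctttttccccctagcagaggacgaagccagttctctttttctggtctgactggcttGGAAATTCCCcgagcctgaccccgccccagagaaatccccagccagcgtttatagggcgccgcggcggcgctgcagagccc
TNFAIP3 (chr6:137867109-137867258, plus strand): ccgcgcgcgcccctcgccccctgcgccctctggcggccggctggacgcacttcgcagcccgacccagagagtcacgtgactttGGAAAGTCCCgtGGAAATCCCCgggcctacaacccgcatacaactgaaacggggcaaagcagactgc
CXCL1 (chr4:73869243-73869392, plus strand): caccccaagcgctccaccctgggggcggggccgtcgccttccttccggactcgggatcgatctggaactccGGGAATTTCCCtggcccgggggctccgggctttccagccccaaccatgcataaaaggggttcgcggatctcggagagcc

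In CXCL8 the GGAATTTCC match lay 91 to 83 bases before the start and the only AP-1 match among these genes 137 to 131 bases before it. CCL20 had 1 kappaB match, 79 to 70 bases before its start, and NFKBIA 1, 81 to 72 bases before its start. TNFAIP3 had 2, at 67 to 58 and 55 to 46 bases. CXCL1, CXCL2 and CXCL3, which neighbour CXCL8 in the genome, had the same match at nearly the same place, from 79, 78 and 79 bases before their starts. The 2 motif forms overlap in CXCL1, CXCL2, CXCL3 and NFKBIA. IL1R1 has 4 RefSeq starts and no match to any of these motifs in the window of any of them. Over all 35116 RefSeq windows of this length, 6.32% held the kappaB motif or its short form, 0.253% the short form, and 4.17% the AP-1 motif. The repeat bound by PPARα dimers (2 copies of AGGTCA with 1 base between them) was in the window of none of the 8 genes and in 0.0171% of all windows. A match is a description of letters and not a site of binding.

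At 6 h CXCL8, CCL20, NFKBIA, TNFAIP3 and RELB had a higher signal than in vehicle, and IL1R1 a lower one. At 24 h the reported probe set of none of the 10 differed from vehicle by more than 1.19-fold, while the other probe set of TNFAIP3 was 1.25-fold lower. For the reported probe sets, the mean of CCL20 and IL1R1 lay above vehicle and that of TNFAIP3, NFKBIA and CXCL8 below it. CXCL1, CXCL2, CXCL3 and CCL2 had a low signal, and their groups overlapped in all comparisons. In the limma fit over all genes, 5 of the 10 were called higher and 1 lower at 6 h, where 1.64% and 1.91% of the 19775 genes were called higher and lower at an adjusted p under 0.05. At 24 h against vehicle 0 were called higher and 1 lower, against 5.38% and 2.80% of all genes. There 5 of the 10 had an unadjusted p under 0.05 by limma, as did 4198 of the 19775 genes. For 24 h against 6 h, 1 was called higher and 5 lower, against 9.23% and 4.57% of all genes. Because the genes were chosen on these arrays, nothing is read from these counts. The median difference of the 10 at 6 h was 0.28 on the log2 scale, beside 0.0039 over all genes, and -0.019 at 24 h, beside 0.0034.

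**Figure D1:**
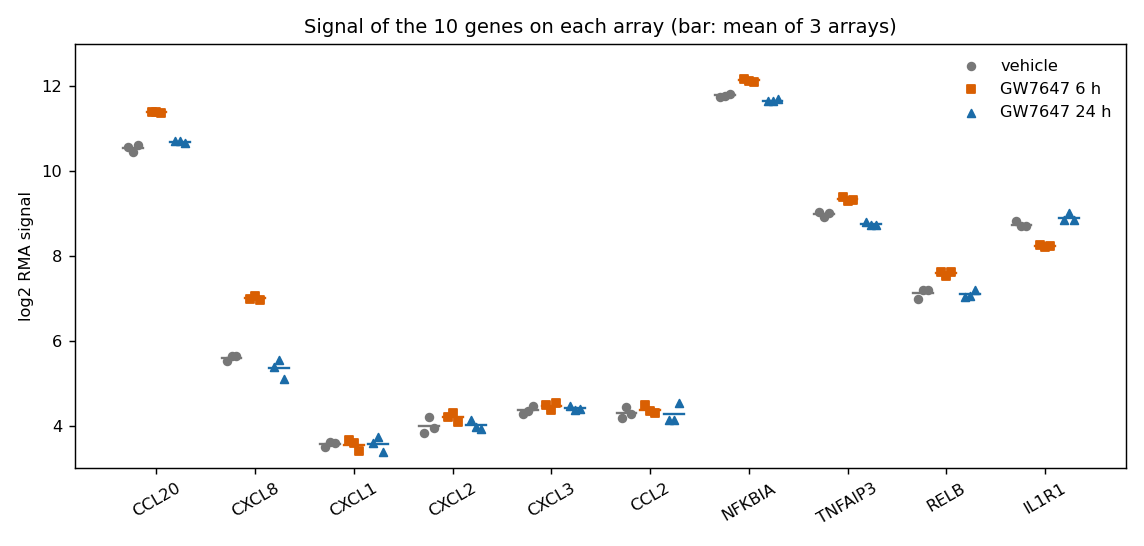
Log2 RMA signal of the reported probe set of each gene (vertical axis) on every array, with 3 arrays of vehicle (circles), GW7647 6 h (squares) and GW7647 24 h (triangles) and a bar at each group mean. For CXCL8 the 6 h arrays lie between 6.96 and 7.07 and all other arrays at 5.64 or below, while CXCL1, CXCL2, CXCL3 and CCL2 stay under 4.54 throughout.

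CXCL8, also called interleukin-8, draws neutrophils and had the largest difference of the 10 genes. Its log2 signal was 5.53, 5.64 and 5.64 on the vehicle arrays, 6.98, 7.07 and 6.96 at 6 h, and 5.38, 5.56 and 5.11 at 24 h. The 6 h arrays lay above all others by at least 1.31 log2 units, and the 24 h arrays overlapped with vehicle, 2 of them lying below every vehicle array. The 3 vehicle arrays had an SD of 0.067, those at 6 h 0.059 and those at 24 h 0.22. The signal was 2.64-fold that of vehicle at 6 h (95% confidence interval 2.28 to 3.05). From 6 h to 24 h it was 3.14-fold lower (2.72 to 3.64), and at 24 h it was 1.19-fold lower than in vehicle (1.03 to 1.38). The reported probe set ends in _x_at, the mark of probes that may also match other transcripts. The other CXCL8 probe set, which ends in _s_at, read 5.04, 4.90 and 4.70 in vehicle, 5.94, 5.58 and 5.65 at 6 h, and 4.61, 4.73 and 4.58 at 24 h. It gave the same order with a smaller 6 h difference, 0.84 ± 0.11 against 1.40 ± 0.10 log2 units (SE). In RNA of a whole culture, a change in the share of cells with a transcript and a change in transcript per cell cannot be told apart.

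CCL20 attracts lymphocytes and dendritic cells that carry the receptor CCR6. Its log2 signal was 10.58, 10.45 and 10.62 in vehicle, 11.40, 11.39 and 11.37 at 6 h, and 10.71, 10.71 and 10.65 at 24 h. The 6 h arrays stood apart by 0.66 log2 units or more from all others and spread little (SD 0.013), and the 24 h arrays lay just above the vehicle arrays, by 0.038 log2 units. The signal was 1.79-fold that of vehicle at 6 h (95% confidence interval 1.63 to 1.95) and 1.10-fold at 24 h (1.01 to 1.21). From 6 h to 24 h it was 1.62-fold lower (1.48 to 1.77).

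CXCL1, CXCL2 and CXCL3, close relatives that also draw neutrophils, and CCL2, which draws monocytes, did not share the 6 h pattern. CXCL1 read 3.50, 3.63 and 3.59 in vehicle, 3.66, 3.60 and 3.41 at 6 h, and 3.60, 3.72 and 3.39 at 24 h, so that all groups overlapped. Its mean of 3.57 stood at the 9.23 percentile of all probe sets with 1 symbol, where RMA signals carry little information. CXCL3 lay between 4.29 and 4.53 and CCL2 between 4.13 and 4.53 over the 9 arrays. The 3 probe sets of CXCL2 lay between 3.55 and 4.31, and the reported one had a 6 h difference of 0.20 ± 0.10 log2 units, against -0.052 ± 0.070 and 0.0048 ± 0.076 for the others. The groups of all these probe sets overlapped at both times. At 6 h the 95% confidence interval of the fold was 0.859 to 1.13 for CXCL1, 0.993 to 1.34 for CXCL2, 0.968 to 1.18 for CXCL3 and 0.892 to 1.25 for CCL2. These intervals do not show that the transcripts were unchanged.

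**Figure D2:**
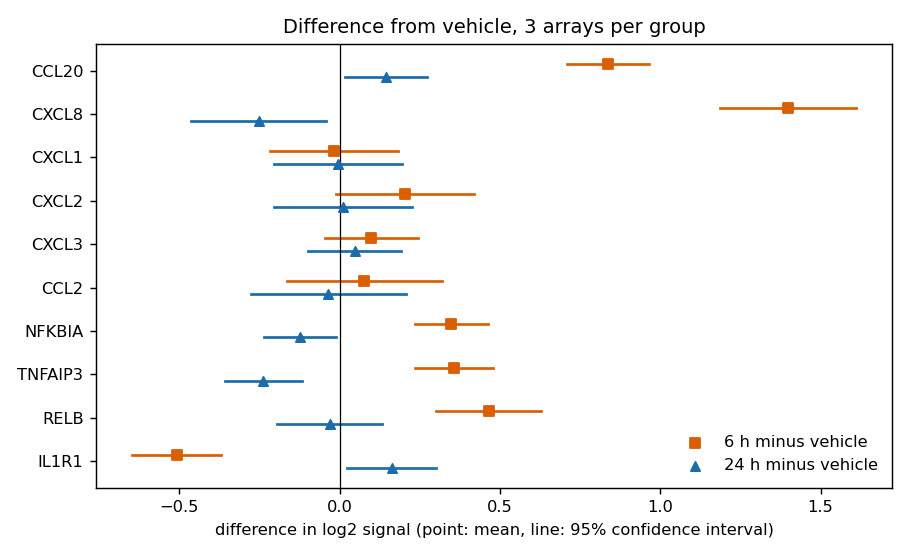
Difference in log2 signal from the vehicle mean (horizontal axis) for each gene at 6 h (squares) and at 24 h (triangles), with 95% confidence intervals from the limma fit and 3 arrays per group. The 6 h points of CXCL8 (1.40), CCL20 (0.84), RELB (0.46), TNFAIP3 (0.36) and NFKBIA (0.35) lie right of 0 and that of IL1R1 (-0.51) left of it, while the 24 h points lie between -0.25 and 0.16.

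IL1R1, the receptor through which interleukin-1 signals, ran the opposite way. Its log2 signal was 8.82, 8.70 and 8.71 in vehicle, 8.26, 8.21 and 8.24 at 6 h, and 8.85, 9.01 and 8.86 at 24 h. The 6 h arrays lay below all others by at least 0.44 log2 units, and the 24 h arrays lay just above the vehicle arrays, by 0.027. The signal was 1.42-fold lower than in vehicle at 6 h (95% confidence interval 1.29 to 1.57) and 1.12-fold that of vehicle at 24 h (1.02 to 1.23), and from 6 h to 24 h it was 1.59-fold higher (1.45 to 1.75). The other IL1R1 probe set, with a mean of 5.94, had a 6 h difference of -0.16 ± 0.11 log2 units (SE), with the groups overlapping. With both probe sets averaged the 6 h difference of the gene was -0.33.

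RELB, a subunit of the alternative NF-kappaB pathway and itself an NF-kappaB target, has 1 probe set. It read 6.99, 7.21 and 7.20 in vehicle, 7.63, 7.53 and 7.62 at 6 h, and 7.03, 7.07 and 7.21 at 24 h. The 6 h arrays lay above all others by 0.33 log2 units or more, and the 24 h arrays fell within the range of the vehicle arrays. The signal was 1.38-fold that of vehicle at 6 h (95% confidence interval 1.23 to 1.55) and 0.978-fold at 24 h (0.873 to 1.10).

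NFKBIA encodes IkappaBα, which holds NF-kappaB in the cytoplasm and is remade within hours of its destruction. Its probe set read 11.76, 11.78 and 11.83 in vehicle, 12.17, 12.13 and 12.11 at 6 h, and 11.65, 11.65 and 11.70 at 24 h. The 3 groups did not overlap, with 6 h above vehicle and 24 h below it. The signal was 1.27-fold that of vehicle at 6 h (95% confidence interval 1.18 to 1.38) and 1.09-fold lower than vehicle at 24 h (1.01 to 1.18). The other NFKBIA probe set, with a mean of 5.57, differed by 0.20 ± 0.10 log2 units (SE) at 6 h and by 0.037 ± 0.100 at 24 h, and its groups overlapped at both times.

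TNFAIP3 encodes A20, a ubiquitin-editing enzyme that shuts down signalling upstream of the IkappaB kinase. It read 9.03, 8.93 and 9.01 in vehicle, 9.39, 9.31 and 9.33 at 6 h, and 8.79, 8.72 and 8.73 at 24 h. As for NFKBIA the groups did not overlap, in the order 24 h, vehicle, 6 h. The signal was 1.28-fold that of vehicle at 6 h (95% confidence interval 1.18 to 1.39), and 1.18-fold lower than vehicle at 24 h (1.08 to 1.28). The other TNFAIP3 probe set read 8.54, 8.32 and 8.45, then 8.79, 8.73 and 8.67, then 8.10, 8.13 and 8.11, in the same order and again without overlap. Its differences from vehicle were 0.29 ± 0.07 at 6 h and -0.32 ± 0.07 at 24 h (log2, SE). From 6 h to 24 h the difference of the reported probe set was -0.59 ± 0.06 for TNFAIP3, -0.47 ± 0.05 for NFKBIA and -0.50 ± 0.07 for RELB (log2, SE). The 1 gene in the count of those called lower at 24 h was TNFAIP3, and it left that count without 24 h replicate 2 or 3, vehicle replicate 1 or 3, or the 6 h arrays, from which, as from the count, nothing is read.

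**Figure D3:**
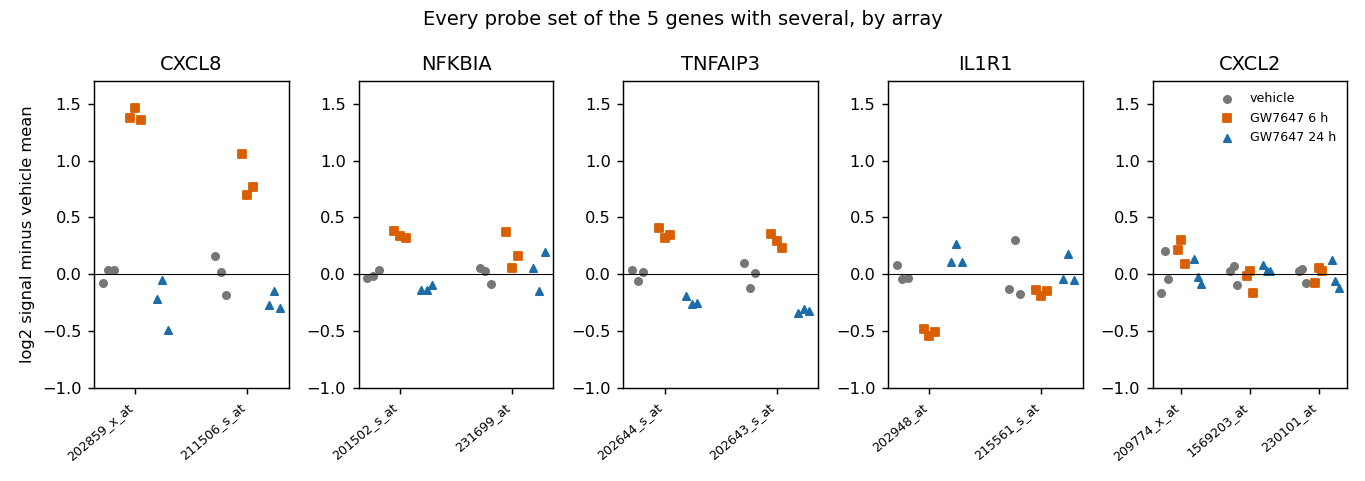
Log2 signal minus the vehicle mean of the same probe set (vertical axis) on each of 9 arrays, for every probe set of the genes with several, by group (circles vehicle, squares 6 h, triangles 24 h). Both probe sets of CXCL8 and of TNFAIP3 show the 6 h arrays above vehicle, while 1 of 2 probe sets of NFKBIA and of IL1R1 and all 3 of CXCL2 overlap with vehicle.

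The 3 arrays of each group were close, with r = 0.997 to 0.999 across genes over 9 pairs within groups and 0.995 to 0.998 over 27 pairs between groups; genes are not independent replicates. Of 9 measured hepatocyte and hepatoma markers, the median level was 14.1 and that of ALB 14.8, whereas PTPRC, which marks all leukocytes, was at 4.26, CD163 of macrophages at 4.78 and CD14, the highest of the leukocyte list, at 7.70. Over the 11 measured leukocyte and Kupffer cell markers the mean level of an array was 5.19 to 5.29 in vehicle, 5.21 to 5.23 at 6 h and 5.16 to 5.29 at 24 h. Of these 11, 1 was called at 6 h, CD14 (-0.29 ± 0.05, adjusted p = 0.0159), and 0 at 24 h. Of the hepatocyte and hepatoma markers 0 of 9 were called at 6 h by limma, and 2 fell at 24 h, FGB (-0.67 ± 0.06, adjusted p = 6.87e-05) and TTR (-0.55 ± 0.07, adjusted p = 0.00116). Of 7 stellate cell and fibroblast markers 1 rose at 24 h, ACTA2 (0.27 ± 0.05, adjusted p = 0.007). Over that list the median level was 5.73, with ACTA2 at 10.9 and COL1A1 at 8.50. Over 6 endothelial markers it was 5.16, with PECAM1 highest at 8.22, and 0 were called against vehicle at either time. The part of these markers in the results was not tested. The balance of calls over all genes depended on scaling. At 6 h, 324 genes were called higher and 377 lower, against 419 and 328 after quantile normalization. For 24 h against 6 h the counts were 1826 and 903, against 1457 and 1207 after it. Median centring gave 255 and 416 at 6 h and 2175 and 653 for 24 h against 6 h. The directions of the 6 genes that differed at 6 h were the same under both scalings.

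The rest of the pathway was read from 136 other genes in 9 lists, of NF-kappaB signalling and of factors that act beside it. Of these, 124 were measured and the others were not analysed here. The lists were written with earlier results of these data known, so their shares are a description and no independent test of the pathway. At 6 h against vehicle 9 rose, 1 fell and 114 did not pass the limma test (adjusted p under 0.05, Benjamini-Hochberg over 19775 genes). An unadjusted p under 0.05 was found for 32 of the 124. Of all 19775 genes, 3227 had such a p at 6 h, 4198 at 24 h and 5117 for 24 h against 6 h. The unadjusted counts given below for each list are to be read beside these. At 24 h against vehicle 7 rose and 2 fell (7 and 4 after quantile normalization), and 24 h against 6 h gave 12 higher and 12 lower. As shares of the 124 genes, 7.26% rose and 0.806% fell at 6 h, beside 1.64% and 1.91% of all genes. Of the 9 genes that rose at 6 h, 4 were from the list of 12 AP-1 and C/EBP factors, which act beside NF-kappaB. The lists of subunits, IkappaB kinases, negative regulators, receptors and adaptors, and chemokine receptors had 0 calls at 6 h. At 24 h against vehicle 5.65% rose and 1.61% fell, beside 5.38% and 2.80% of all genes, so these counts were near the background. From 6 h to 24 h 9.68% were higher, near the 9.23% of all genes, and 9.68% lower, beside 4.57%. No share was tested against the other genes. The median difference of the 124 genes was 0.027 at 6 h, beside 0.0039 over all genes, and 0.014 at 24 h, beside 0.0034. In all, 43 calls were made over the 3 comparisons, of which 29 passed in every fit that left out 1 array.

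The NF-kappaB subunits and IkappaB family other than RELB and NFKBIA gave no call by limma in any comparison. Of 8 measured, 0 had an unadjusted p under 0.05 at 6 h, 3 at 24 h and 2 for 24 h against 6 h. RELA, the main activating subunit, read 9.47, 9.44 and 9.51 in vehicle, 9.37, 9.29 and 9.40 at 6 h and 9.42, 9.65 and 9.51 at 24 h, a 6 h difference of -0.12 ± 0.07 log2 units (SE, adjusted p = 0.416). NFKB1, the precursor of the p50 subunit, had 0.032 ± 0.063 (adjusted p = 0.853). IL1B, the cytokine that IL1R1 senses, had -0.056 ± 0.119 at 6 h (adjusted p = 0.865) and -0.19 ± 0.12 at 24 h (adjusted p = 0.400).

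The IkappaB kinase and its upstream kinases gave no call at 6 h by limma, with 2 of 11 at an unadjusted p under 0.05. At 24 h against vehicle 0 rose and 2 fell, TBK1 (-0.44 ± 0.06, adjusted p = 0.00124), a kinase of innate immune signalling, and TAB3 (-0.30 ± 0.07, adjusted p = 0.0231), an adaptor of the kinase TAK1. The TAB3 call was lost without vehicle replicate 1 or 24 h replicate 1 or 3 (adjusted p up to 0.0809), and with its probe sets averaged (-0.17, adjusted p = 0.126). Compared with 6 h, TBK1 was lower at 24 h (-0.32 ± 0.06, adjusted p = 0.00510) and TAB1 higher (0.29 ± 0.06, adjusted p = 0.00991).

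Negative regulators other than NFKBIA and TNFAIP3 gave no call at 6 h by limma, with 2 of 14 at an unadjusted p under 0.05. At 24 h 2 rose and 0 fell: the ubiquitin ligase ITCH (0.42 ± 0.05, adjusted p = 7.23e-04) and TNIP1, a partner of A20 (0.24 ± 0.06, adjusted p = 0.0338). Both were also higher at 24 h than at 6 h, by 0.39 ± 0.05 (adjusted p = 6.88e-04) and 0.25 ± 0.06 (adjusted p = 0.0187). Probe sets of ITCH disagreed at 24 h against vehicle, since 3 of the other 5 gave 0.31, 0.39 and 0.43 but the rest 0.029 and 0.0019, and the call was lost without probe sets ending in _x_at or _s_at (adjusted p = 0.925). The TNIP1 call at 24 h was lost when any 1 vehicle array, 6 h replicate 1 or 3 or 24 h replicate 1 or 2 was left out (adjusted p up to 0.113), and its other probe set gave 0.079. Against 6 h the TNIP1 call was lost on leaving out 24 h replicate 2 or 6 h replicate 1 or 2 (adjusted p up to 0.0883).

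Receptors and adaptors of the interleukin-1, Toll-like and tumour necrosis factor families gave no call against vehicle by limma, with 6 of 20 at an unadjusted p under 0.05 at 6 h and 3 at 24 h. Against 6 h, TOLLIP (0.34 ± 0.08, adjusted p = 0.0157) and the kinase IRAK1 (0.20 ± 0.05, adjusted p = 0.0259) were higher at 24 h and the flagellin receptor TLR5 lower (-0.33 ± 0.09, adjusted p = 0.0272). None of these 3 passed in every fit that left out 1 array. TOLLIP was lost without 6 h replicate 1 or 2 or 24 h replicate 1, TLR5 without 6 h replicate 1 or 24 h replicate 1 or 3, and IRAK1 without 24 h replicate 1 or 2 or a single 6 h array (adjusted p up to 0.107). Of the 6 measured receptors for the chemokines above, 0 passed against vehicle at either time by limma, with 1 at an unadjusted p under 0.05 at each. CCR6, the receptor for CCL20, was higher at 24 h than at 6 h (0.40 ± 0.10, adjusted p = 0.0196), but not without 6 h replicate 2 or 3 or 24 h replicate 2 or 3 (adjusted p up to 0.0927).

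Among 14 cytokine ligands, IL18 rose at 6 h (0.65 ± 0.08, adjusted p = 0.00204), 0 fell, and 0 passed at 24 h by limma, with 3 at an unadjusted p under 0.05. IL18 read 4.62, 4.40 and 4.52 in vehicle, 5.36, 5.08 and 5.07 at 6 h and 4.51, 4.56 and 4.52 at 24 h, a low signal at the 30.5 percentile. Its 6 h arrays lay above all others, and from 6 h to 24 h it was lower (-0.64 ± 0.08, adjusted p = 6.15e-04).

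Among 18 other chemokines, CX3CL1, a membrane-bound chemokine for monocytes and lymphocytes, fell at 6 h (-0.55 ± 0.06, adjusted p = 7.36e-04). It read 9.14, 9.18 and 9.12 in vehicle, 8.60, 8.49 and 8.69 at 6 h, and had a mean of 8.98 at 24 h, and the 3 groups did not overlap. The other CX3CL1 probe set gave -0.49 at 6 h. Against 6 h it was higher at 24 h (0.39 ± 0.06, adjusted p = 0.00173). CXCL9, a chemokine for T cells, rose at 6 h (0.36 ± 0.08, adjusted p = 0.0441), a call lost on leaving out vehicle replicate 1 or 3, 24 h replicate 1 or a single 6 h array (adjusted p up to 0.155). At 24 h against vehicle 1 of 18 rose, CCL16 (0.39 ± 0.10, adjusted p = 0.0308), a call lost without vehicle replicate 3, 6 h replicate 1 or 3 or 24 h replicate 2 or 3 (adjusted p up to 0.107). From 6 h to 24 h 3 were higher and 2 lower by limma. Among them were CXCL16 (0.40 ± 0.06, adjusted p = 0.00178) and CXCL9 (-0.39 ± 0.08, adjusted p = 0.00992). CX3CL1, CCL16 (0.35 ± 0.10) and CCL28 (-0.24 ± 0.07) made up the rest, with CCL16 and CCL28 named here after their values were seen. Leaving out 1 array lost the CCL16 call in 5 fits and the CCL28 call in 6. The other CCL28 probe sets gave 0.20 and 0.064.

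Among 21 other NF-kappaB target genes, 3 rose at 6 h and 0 fell. These were IER3, an immediate early survival gene (0.60 ± 0.07, adjusted p = 0.00112), the heparan sulphate proteoglycan SDC4 (0.53 ± 0.06, adjusted p = 6.09e-04), and tissue factor F3 (0.31 ± 0.06, adjusted p = 0.0239). SDC4 read 10.04, 10.10 and 10.17 in vehicle, 10.67, 10.63 and 10.60 at 6 h and 9.94, 9.87 and 9.97 at 24 h, with the 6 h arrays above and the 24 h arrays below all vehicle arrays. IER3 read 11.05, 11.25 and 11.26 in vehicle, 11.76, 11.84 and 11.75 at 6 h, and 12.09, 11.94 and 12.06 at 24 h, so that its signal was highest at 24 h. IER3 was the 1 gene of the list that rose at 24 h against vehicle (0.84 ± 0.07, adjusted p = 4.26e-05). The F3 call at 6 h was lost on leaving out a single 6 h array or vehicle replicate 1 or 2 (adjusted p up to 0.11). For 24 h against 6 h, SDC4 (-0.71 ± 0.06, adjusted p = 2.92e-05), the dendritic cell marker CD83 (-0.51 ± 0.07, adjusted p = 0.00105) and F3 (-0.43 ± 0.06, adjusted p = 0.00119) were lower and 1 gene, IER3, was higher. The higher IER3 was lost on leaving out a single 6 h array or 24 h replicate 1 or 3 (adjusted p up to 0.122).

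Among 12 AP-1 and C/EBP factors, transcription factors that act beside NF-kappaB on chemokine promoters, 4 rose at 6 h and 0 fell, with a median difference of 0.24 log2 units. JUNB led (0.66 ± 0.08, adjusted p = 0.00167), reading 7.33, 7.50 and 7.42 in vehicle, 8.07, 8.22 and 7.94 at 6 h and 7.18, 7.38 and 7.37 at 24 h. ATF3 (0.44 ± 0.06, adjusted p = 0.00268) and JUN (0.42 ± 0.05, adjusted p = 0.00165) followed. The fourth, FOSL1 (0.34 ± 0.08, adjusted p = 0.0453), was named after its values were seen, and its call was lost when any array other than vehicle replicate 3 was left out (adjusted p up to 0.17). The other probe sets of ATF3 gave -0.0050 and 0.022, and its call was lost with the probe sets averaged (0.15, adjusted p = 0.133), while those of JUN gave 0.14, 0.42 and 0.53. At 24 h against vehicle 3 rose and 0 fell, MAFF (0.46 ± 0.07, adjusted p = 0.00293), CEBPG (0.42 ± 0.08, adjusted p = 0.00667) and CEBPD (0.40 ± 0.07, adjusted p = 0.00699). The other probe set of CEBPG gave 0.018, that of CEBPD -0.066 and that of MAFF 0.19, and with its probe sets averaged CEBPD was no longer called (0.17, adjusted p = 0.0923). From 6 h to 24 h 2 were higher and 4 lower, with JUNB (-0.77 ± 0.08, adjusted p = 2.03e-04), CEBPD (0.63 ± 0.07, adjusted p = 3.23e-04) and FOSL1 (-0.54 ± 0.08, adjusted p = 0.00137) the largest.

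**Figure D4:**
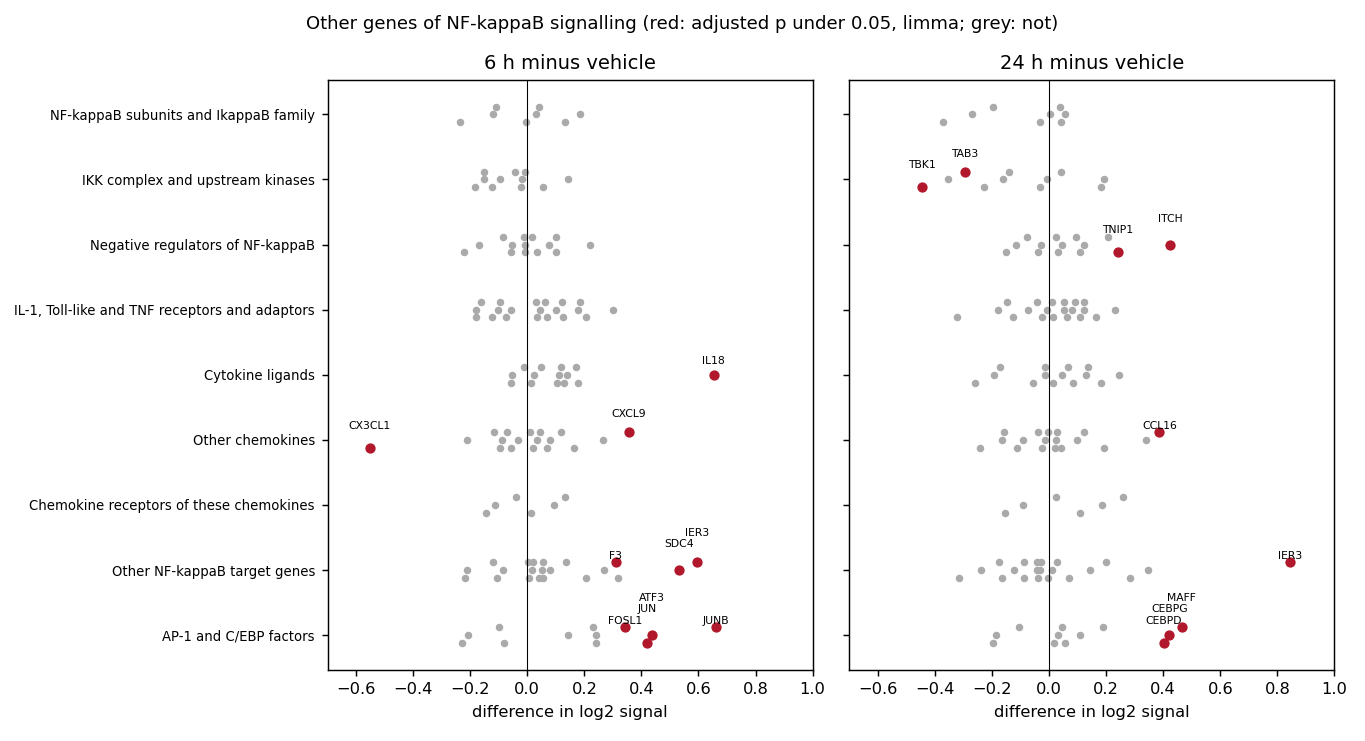
Difference in log2 signal from vehicle (horizontal axis) at 6 h (left) and at 24 h (right), 1 point per gene, by list. The genes are the others of NF-kappaB signalling and the AP-1 and C/EBP factors. Red points passed the limma test at an adjusted p under 0.05 and are named, 10 at 6 h and 9 at 24 h, while grey points did not pass.

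The genes whose profile lay closest to that of CXCL8 were sought by the root mean square difference over the 9 arrays, each gene taken relative to its own vehicle mean. They were ARRDC3 (0.32 log2 units), GPCPD1 (0.33), the transcription factor EGR1 (0.37), MAB21L3 (0.38) and EDN1, the precursor of endothelin-1 (0.42). For CCL20 they were the kinase SGK1 (0.083 log2 units), ANKRD1 (0.12) and TGFB1I1 (0.14). SGK1 differed from vehicle by 0.76 at 6 h and 0.10 at 24 h, beside 0.84 and 0.14 for CCL20. GPCPD1 differed by 1.49 at 6 h and 0.22 at 24 h, beside 1.40 and -0.25 for CXCL8.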

How the data were processed

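The authors deposited log2 probe set signals for 9 arrays, made with RMA per the submitters' processing notes. No source used here gives its version or chip definition. RMA subtracts background, gives the probe intensities of every array the same distribution and then combines probes into probe set signals. Low signals crowd near a floor and carry little information. Per the labels' protocols, labelled cRNA was made in 1 cycle. The values ran from 2.66 to 15.0 with 0 missing, and array medians from 5.61 to 5.68.

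Of 54675 probe sets, 41091 had 1 gene symbol and were no controls, 1801 had several symbols and 11777 none. Each of 19775 genes was read from the probe set of highest mean signal. The 3 groups, all 9 arrays, entered 1 model in limma 3.58.1 in R 4.3.3 (lmFit and eBayes, with the data.table package, 1.17.8, for reading), tested two-sided and adjusted by Benjamini-Hochberg over all genes, with no filter. The number of arrays, 3 per group, limits precision, and an exact permutation test of 3 against 3 cannot go below p = 0.10. The script was tested on simulated data.

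The genes described, the 9 lists and the alternatives were chosen with earlier results of these data known; the lists come from general knowledge. They cover NF-kappaB subunits and IkappaB proteins, IkappaB kinases, negative regulators, receptors and adaptors, cytokines, other chemokines, chemokine receptors, other NF-kappaB targets, and AP-1 and C/EBP factors. Named from each list were up to 3 genes per comparison with the largest change past the threshold, besides RELA, NFKB1 and IL1B, and the genes nearest to CXCL8 (5) and CCL20 (3). Alternatives were other models, scalings, probe set rules and thresholds, and leaving out each array.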

Additional observations from a re-analysis of the deposited data

Results flagged for a closer look

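Differences between the 6 h and 24 h arrays are listed here. The 10 genes were chosen on these arrays, so their difference is given as a description and no test of it is used. For CXCL8, NFKBIA, TNFAIP3 and IL1R1, all 3 arrays at 6 h lay on 1 side of the vehicle mean. All 3 at 24 h lay on the other side. Their 24 h means differed from vehicle by -0.25, -0.12, -0.24 and 0.16 log2 units. The 24 h arrays of CXCL8 still overlapped with the vehicle arrays. Of the other probe sets, those of CXCL8 and TNFAIP3 met this rule and those of NFKBIA and IL1R1 did not. How many of all genes met it was not counted, so nothing is read from it.

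Among the other pathway genes the difference was tested as 24 h minus 6 h with limma, adjusted over all genes. It was negative for JUNB (-0.77), SDC4 (-0.71), IL18 (-0.64), FOSL1 (-0.54), CD83 (-0.51), F3 (-0.43), CXCL9 (-0.39), TLR5 (-0.33) and TBK1 (-0.32 log2 units). It was positive for CEBPD (0.63), CCR6 (0.40), CXCL16 (0.40), ITCH (0.39), CX3CL1 (0.39), TOLLIP (0.34), TAB1 (0.29), TNIP1 (0.25) and IRAK1 (0.20 log2 units). The calls of TLR5, CCR6, TOLLIP, TNIP1 and IRAK1 were each lost in some fits that left out 1 array. Without probe sets ending in _x_at or _s_at, limma no longer called ITCH, CEBPD, TOLLIP or TNIP1 (adjusted p up to 0.97). With probe sets averaged, TOLLIP and TNIP1 were not called either.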

How the results depend on the processing

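The 10 genes were chosen on these arrays, so how many of them were called is a description and no sign of stability. With 1 array left out the count was 6 to 6 at 6 h and for 24 h against 6 h, and the calls at 24 h against vehicle were 0 to 1, and without 24 h replicate 2 the 1 call was CXCL8 in place of TNFAIP3. Calls of other pathway genes ranged from 7 to 11 at 6 h, 7 to 13 at 24 h and 17 to 26 for 24 h against 6 h with 1 array left out. Without probe sets ending in _x_at or _s_at, which removes CXCL8, TNFAIP3 and CCL2 and leaves NFKBIA to its dim probe set, the counts were 3 at 6 h, 0 at 24 h and 3 for 24 h against 6 h. Asking for at least a 1.5-fold change left 2 of the 10 at 6 h and 0 at 24 h, and 3, 1 and 4 other pathway genes in the 3 comparisons. At 24 h the 1 called gene of the 10 became 0 when the fit held just the compared groups or at an adjusted p under 0.01, and 2 with an intensity trend. The 9 other pathway genes at 24 h became 16 with an intensity trend, 20 among genes above the median signal and 14 with every probe set on its own; there the cause was not tested.

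Without shared probes CEBPD turned to -0.066 at 24 h against vehicle and -0.033 against 6 h, TNIP1 to -0.022 against 6 h, and CCL28 to 0.064, or 0.0081 with probe sets averaged, as another probe set was read. Equal replicate numbers did not pair the arrays: the deviations from group means of same-numbered arrays correlated at -0.20 to 0.086 over 9 pairs, and 1 of 9 arrays correlated best with its own number. A replicate block left the calls of the 10 genes at 6, 1 and 6 and gave 7, 12 and 21 other pathway genes.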
